A study of Mus musculus with 18 samples.

Results

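The external granule cell layer of euploid newborn mice was described across genes, from the 9 arrays of the 18 in the series whose genotype label was euploid. The layer of each mouse had been dissected at birth (P0) and its RNA hybridized to 1 array of a bead-based mouse expression chip with 46632 probes. The mice were the euploid littermates of Ts1Cje mice, a model of Down syndrome with an extra copy of part of mouse chromosome 16, on the mixed background labelled B6EiC3SnF1/J A/a. They came from 3 litters, with 3 euploid mice in each, and each litter had a slide of its own, on which its 6 samples were run, so that a difference between litters cannot be told apart from one between slides. Mice are numbered 1 to 3 within their litter, in an order that carries no meaning. Of the 9 arrays, 2 had a source label naming cerebellum (litter 2, mice 2 and 3), although their tissue field, as for the other 7, named the dissected layer.

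The external granule cell layer is a sheet of precursors under the pia of the developing cerebellum. Its precursors divide under the influence of Sonic hedgehog released by Purkinje cells, leave the cell cycle in the deeper part of the layer, extend axons, and migrate inwards along Bergmann glia to form the internal granular layer. Below and around the sheet lie Bergmann glia, young Purkinje cells, migrating GABAergic interneurons, vessels and the meninges, none of which a dissection by hand fully removes. In a bulk sample, fewer cells of a type and less RNA per cell cannot be told apart.

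Signals are given as deposited, on a log2 scale with the same mean of 6.69 on every array. A gene was represented by its brightest probe, which gave 17711 named genes, ranked by their mean over the 9 mice from 1 (brightest). Probes differ in affinity, so that ranks order signals and not transcript numbers. Over all probes, mice of 1 litter correlated at 0.988 to 0.995 and mice of different litters at 0.986 to 0.992, and no pair of arrays held identical values. The number of arrays limits the precision. To show what an absent transcript gives, 15 genes of liver, muscle, pancreas, testis and other organs were read in the same way. Their median was 5.79, and 14 of them had means under 6.5, while Apoa1, an apolipoprotein of liver and gut, had a mean of 7.32. A mean under 7.32 is therefore within the range of these genes. The upper end of the range rests on Apoa1 alone, since the second-highest of the 15 genes had 6.34.

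Of the 5 genes that mark the layer, 4 were among the brightest signals. Zic1, a zinc finger factor of granule cell precursors, had a signal of 12.76 ± 0.17 (SD, n = 9; rank 133, and between 89 and 185 on single arrays). Dcx, a microtubule protein of migrating neurons, had 12.72 ± 0.21 (rank 140), Ccnd2, the cyclin D of dividing granule cell precursors, had 12.54 ± 0.21 (rank 170), and Ccnd1, a cyclin D induced by Sonic hedgehog, had 12.38 ± 0.28 (rank 205). The lowest, median and highest mouse were at 12.58, 12.76 and 12.99 for Zic1, at 12.38, 12.70 and 13.06 for Dcx, at 12.31, 12.41 and 12.80 for Ccnd2, and at 11.98, 12.36 and 12.75 for Ccnd1. All 9 mice were thus bright for these 4 genes, and the 3 highest values of Ccnd1 were those of litter 3. Barhl1, a homeobox factor of the granule cell lineage, was the exception, at 7.27 ± 0.21 (rank 6836), with its lowest, median and highest mouse at 7.06, 7.19 and 7.70. Its mean was within the range of the genes of other organs, though above all of them but Apoa1, and its 3 highest values were those of litter 1. Thus 4 of the 5 markers were bright in every mouse, and the probe of Barhl1 was not.

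**Figure D1:**
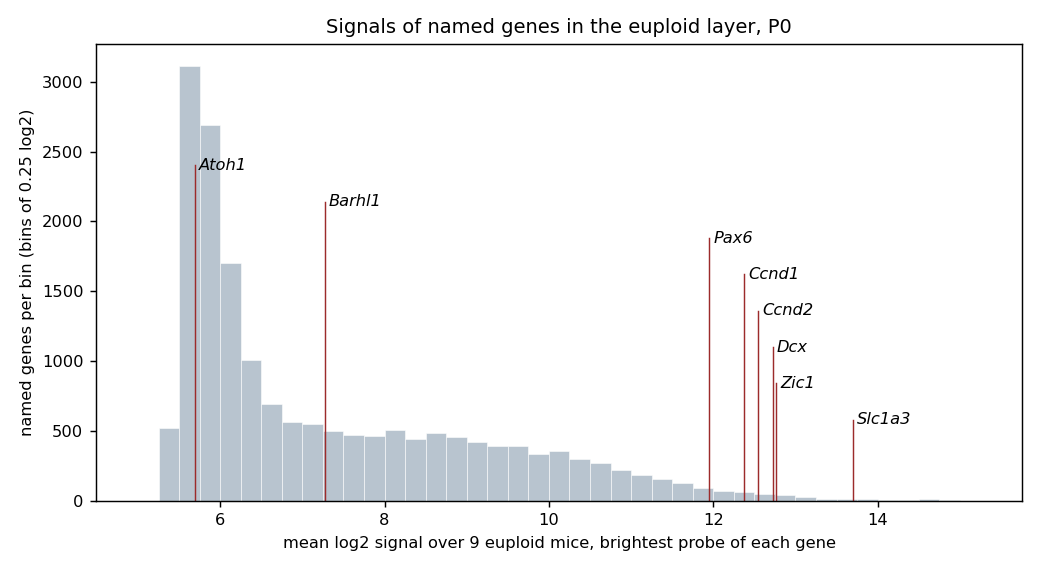
Number of named genes (bars, y axis) by mean log2 signal over 9 euploid mice (x axis, bins of 0.25), with red lines at the means of 8 named genes. Zic1, Dcx, Ccnd2 and Ccnd1 stand in the bright tail with Pax6 (11.95) and Slc1a3 (13.70), while Barhl1 (7.27) stands well below them and Atoh1 (5.69) in the dim part.

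The brightest signals belonged to ribosomal proteins, histone H2A and the cytoskeleton. Rpl41, a protein of the large ribosomal subunit, was first at 14.90 ± 0.15, followed by Tuba1b, an alpha tubulin, at 14.79 ± 0.22, and Eef1a1, a translation elongation factor, at 14.78 ± 0.13. Among the 20 brightest genes were Rpl41, Rps29, Rps20, Rps14 and Rps9 of the ribosome, H2ac13, H2ac10, H2ac6, H2ac20, H2ac22 and H2ac23 of histone H2A, and Tuba1b, Tubb2b and Tubb5 of the tubulins. The rest were Eef1a1, Actb (cytoplasmic actin), Ckb (brain creatine kinase), Basp1 (a membrane protein of growing axons), Ppia (cyclophilin A) and Ybx1 (a nucleic acid binding protein). The SD over the 9 mice of these 20 genes was between 0.07 (Tubb5) and 0.28 (H2ac23). Of 52 ribosomal protein genes, 25 were among the 100 brightest. Averaging all probes of a gene in place of the brightest kept 10 of the 20.

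Histones were bright in 1 family. The histone genes beyond the 6 above were taken up as a group after their values were seen and are given as a description. Of 13 named H2A genes, 8 were among the 100 brightest, from H2ac13 at 14.72 ± 0.21 (rank 4) to H2ac12 at 13.63 (rank 51), whereas the 13 H2B genes, 7 H3 genes and 11 H4 genes on the array had none there, and their highest means were 9.0 (H2B), 10.42 (H3) and 8.66 (H4). The H2A genes are near-identical copies, so that a probe may have read several of them, and the signal of a single copy is uncertain. Replication histones serve the packing of new DNA and are made in S phase, and in these clusters an H2A gene often faces an H2B gene across a shared promoter. In 5 such pairs the promoter windows of RefSeq overlapped by 261 to 277 bases of 300, and in the 4 with both members on the array the probes read 14.72 for H2ac13 and 8.04 for H2bc13, 14.53 for H2ac22 and 9.0 for H2bc22, 13.76 for H2ac15 and 8.43 for H2bc15, and 13.63 for H2ac12 and 8.69 for H2bc12. These are signals of different probes and do not order the transcripts.

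The 250 bases before the start of 3 of the bright H2A genes are shown because these genes gave some of the strongest signals of the layer. They are given 5′ to 3′ on the strand of the gene, from RefSeq (GRCm38.p6), with H2ac13 at chr13:21716162-21716411 (plus strand), H2ac22 at chr13:21787249-21787498 (minus strand) and H2ac6 at chr13:23683960-23684209 (minus strand). Capitals mark CCAAT, read on both strands as CCAAT or ATTGG, and TATAAA, read on the strand of the gene.
H2ac13: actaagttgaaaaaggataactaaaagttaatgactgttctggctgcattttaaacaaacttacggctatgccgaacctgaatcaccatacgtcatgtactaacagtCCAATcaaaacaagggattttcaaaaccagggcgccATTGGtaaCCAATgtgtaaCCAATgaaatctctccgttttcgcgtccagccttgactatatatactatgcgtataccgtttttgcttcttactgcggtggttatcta
H2ac22: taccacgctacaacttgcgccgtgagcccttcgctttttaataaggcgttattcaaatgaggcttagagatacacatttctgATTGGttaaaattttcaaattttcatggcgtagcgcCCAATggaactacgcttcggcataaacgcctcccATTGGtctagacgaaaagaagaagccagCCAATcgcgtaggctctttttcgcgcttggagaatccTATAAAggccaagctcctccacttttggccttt
H2ac6: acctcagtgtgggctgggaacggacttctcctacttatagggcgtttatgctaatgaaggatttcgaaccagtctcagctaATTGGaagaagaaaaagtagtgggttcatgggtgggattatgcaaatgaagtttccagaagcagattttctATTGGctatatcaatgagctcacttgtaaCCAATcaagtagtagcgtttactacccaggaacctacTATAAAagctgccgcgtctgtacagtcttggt
CCAAT occurred 4 times in H2ac13 and H2ac22 and 3 times in H2ac6. All 8 H2A genes among the 100 brightest had it in these 250 bases, 2 to 4 times each, and 33.8% of the 32851 promoter windows of the table had it. TATAAA was in 3 of the 8 (37.5%) and in 7.59% of all windows. These matches are a description of the letters only.

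Transcription factors of the granule cell lineage fell into a bright and a dim set. Of 22 on the list, 20 were on the array. Beside Zic1, the bright ones were Nfib at 12.71 ± 0.16 (rank 143), Pax6 at 11.95 ± 0.14 (rank 328), Nfix at 11.57 ± 0.19 (rank 490), Insm1 at 11.31 ± 0.41 (rank 634) and Neurod2 at 10.94 ± 0.24 (rank 915). Nfia, Nfib and Nfix are nuclear factor I proteins of granule cell differentiation, Pax6 marks precursors and their early progeny, Insm1 is a zinc finger factor of cells about to differentiate, and Neurod2 is a bHLH factor of neurons. Meis1, Zic4, Nfia and Zic2 had means between 10.23 and 10.59, and Uncx, a homeobox factor, had 9.05. The remaining 9 genes were within the range of the genes of other organs, though Barhl1, Neurod1 and Barhl2 were above all genes of that set but Apoa1. Among these 9 were Atoh1, the bHLH factor that specifies the lineage, at 5.69 ± 0.11 (rank 14851; lowest, median and highest mouse at 5.52, 5.68 and 5.83), Mycn, a target of Sonic hedgehog, at 5.53 ± 0.14, and Neurod1, a bHLH factor of young granule cells, at 7.04 ± 0.20. No mouse stood out for Atoh1 or Mycn, and 1 probe per gene was read, so that a low signal here does not show that the transcript was absent.

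Other bright transcription factors were general to young neural cells. Sox11, a SoxC factor of immature neurons, had 12.75 ± 0.15 (rank 135), Tcf4, a bHLH partner of Atoh1, had 12.56 ± 0.14 (rank 166), and Sox12 had 11.49 ± 0.26. The Id genes, which hold bHLH factors inactive, had means of 9.80 (Id1), 9.56 (Id2), 9.28 (Id3) and 7.94 (Id4). En2 and En1, homeobox factors of the midbrain and cerebellum, had 11.33 ± 0.22 and 10.16 ± 0.51. The Hox genes on the list (Hoxa2, Hoxa3, Hoxb1, Hoxb2 and Hoxb3), which pattern the hindbrain behind the cerebellum, were between 5.55 and 6.4, and the forebrain factors Emx1, Emx2, Nkx2-1 and Dlx2 between 5.65 and 6.29, all within the range of the genes of other organs.

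Genes of the cell cycle were bright as a group. Of 27 on the array, 21 had their probe in the brightest 25% of all probes, which held 41.2% of named genes, and the median of the 27 was 10.10, against a median of 6.44 over all named genes. After Ccnd2 and Ccnd1 came Mcm4 (11.34 ± 0.28) and Mcm5 (11.19 ± 0.28), subunits of the replicative helicase, Cdk4 (10.98 ± 0.26), the partner of cyclin D, Rrm1 (10.73 ± 0.25), which makes deoxynucleotides, and Top2a (10.55 ± 0.38), a topoisomerase of S phase and mitosis. Of the mitotic genes, Birc5 had 10.30, Cdc20 10.17, Plk1 10.10, Cdk1 9.38, Aurka 8.95 and Aurkb 8.91. Pcna (6.90), Ccna2 (5.92), Ccnb2 (5.58), Bub1 (6.39), Ube2c (5.86) and Cdk6 (6.63) were within the range of the genes of other organs. Of these, Pcna, Cdk6 and Bub1 were above all genes of other organs but Apoa1. Among the inhibitors of cyclin-dependent kinases, Cdkn1c was the brightest at 12.64 ± 0.09 (rank 153), followed by Cdkn1a at 9.61 ± 0.48, Cdkn2c at 9.22 ± 0.30 and Cdkn2d at 8.82 ± 0.13. Cdkn1b, an inhibitor that accompanies cell cycle exit of granule cells, had 6.61, and Cdkn2b and Cdkn2a had 6.55 and 6.16. Cdkn1c differed little between mice, with its lowest, median and highest at 12.49, 12.65 and 12.74, whereas Cdkn1a ranged between 8.90 and 10.26.

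Sonic hedgehog pathway genes had means from 5.42 to 9.89, and Notch pathway genes from 5.60 to 12.38. Shh, the ligand, had 7.94 ± 0.38, its receptor Ptch1 9.47 ± 0.18, the transducer Smo 8.77 ± 0.16, the inhibitor Sufu 8.83 ± 0.18, and the decoy receptor Hhip 7.81 ± 0.22. Of the effectors, Gli3 had 9.06 ± 0.17 and Gli1, an immediate target, 5.42 ± 0.15 (rank 17585). Sfrp1, a secreted Wnt modulator placed on this list, had 9.89 ± 0.57. In the Notch pathway the receptors Notch1 and Notch3 had 9.69 ± 0.13 and 8.21 ± 0.13, Notch2 had 5.75, and the ligand Jag1 had 5.60. Of the HES and HEY factors, Hes6, which opposes Hes1, was brightest at 12.38 ± 0.20 (rank 203), followed by Hey1 at 11.03 ± 0.34, Hes5 at 8.81 ± 0.44 and Hes1 at 7.95 ± 0.19. Hes5 had the widest range of these, between 8.11 and 9.33.

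Genes of postmitotic, growing neurons were the brightest of the marker lists. The 21 genes had a median of 11.43, and 13 of them were among the first 1000. Tubb2b, a beta tubulin of young neurons, had 14.63 ± 0.19 (rank 9), Map1b, a microtubule protein of axons, 13.25 ± 0.24, Stmn2 12.64 ± 0.29, Mapt (tau) 12.51 ± 0.23, Gap43, of growth cones, 12.20 ± 0.21, and Cntn2 (TAG-1), the axonal adhesion protein of the deep external layer, 11.43 ± 0.31. Rbfox3, the NeuN antigen, had 11.34 ± 0.34. Other members were dimmer, with Map2 at 8.99 ± 0.43 and Tubb3 at 8.16 ± 0.15, and the lowest mean of the list was 6.09. Genes of mature granule cells were mixed, with a median of 7.24 over 10 genes. Of these 10, 5 were in the brightest 25% of probes, which held 41.2% of all named genes. Kcnc1, of this list, had 9.55 ± 0.39. Gabra6, the receptor subunit of adult granule cells, had 5.39 ± 0.18 (rank 17657), Gabrd 5.92, Kcnk9 5.63 and Cbln3 5.77, while Cbln1, the synaptic organizer that granule cells secrete onto Purkinje cells, had 12.73 ± 0.39 (rank 138). Cbln1 was lowest at 12.03, in litter 2 mouse 1, and highest at 13.32, in litter 2 mouse 2.

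Genes of migration and guidance ranged widely. Reln, the glycoprotein that granule cells secrete to position Purkinje cells, had 13.05 ± 0.22 (rank 91), Unc5c, a netrin receptor, 10.94 ± 0.19, Astn1, the adhesion protein of migration along glia, 10.69 ± 0.20, Itgb1 10.72 ± 0.25, Sema6a 10.06 ± 0.50, and Cxcr4, the receptor that holds precursors near the pia, 9.62 ± 0.43. Bdnf had 6.01 and Erbb4 5.94. Of transmitter receptors, the AMPA subunits Gria2 and Gria1 had 12.49 ± 0.20 and 12.20 ± 0.28, while Grin2b had 8.52, Grin2a 6.45 and Gabra2 6.65.

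Markers of other cells of the cerebellum were read in the same samples, and their part in the other results was not tested. Astroglial genes had a median of 9.04 over 16 genes. Slc1a3 (GLAST), the glutamate transporter of radial and Bergmann glia, had 13.70 ± 0.13 (rank 46), Vim 13.22 ± 0.13, Gdf10, a Bergmann glia gene, 12.67 ± 0.25, and Sox9 11.21 ± 0.38, whereas Gfap, of mature astrocytes, had 6.02 and S100b 5.67. Purkinje cell genes had a median of 9.54 over 10 genes, with Pcp2 at 11.54 ± 0.44, Lhx1 at 11.33 ± 0.28, Rora at 11.00 ± 0.16 and Calb1 at 10.09 ± 0.52, but Pcp4 at 5.98 and Car8 at 5.54. Of the GABAergic genes, Slc32a1, the vesicular GABA transporter, had 11.80 ± 0.16 and Gad1 10.65 ± 0.32, and Pax2, a factor of interneuron precursors, 5.87. The oligodendrocyte lineage had a median of 7.32 over 9 genes, with Olig1 at 10.41 ± 0.42 and Pdgfra at 9.41 ± 0.22. Endothelial genes had a median of 7.64 over 12 genes, with Cldn5, of tight junctions, at 10.96 ± 0.34 and Pecam1 at 8.57 ± 0.19. Erythroid genes had a median of 6.54 over 9 genes, although the globin genes Hbb-bt, Hba-a1 and Hbb-bs were at 12.27 ± 0.35, 12.26 ± 0.39 and 12.23 ± 0.40. Of 10 microglial genes none was in the brightest 25% of probes (41.2% of all named genes were), with Cx3cr1 the highest at 7.02 ± 0.38.

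**Figure D2:**
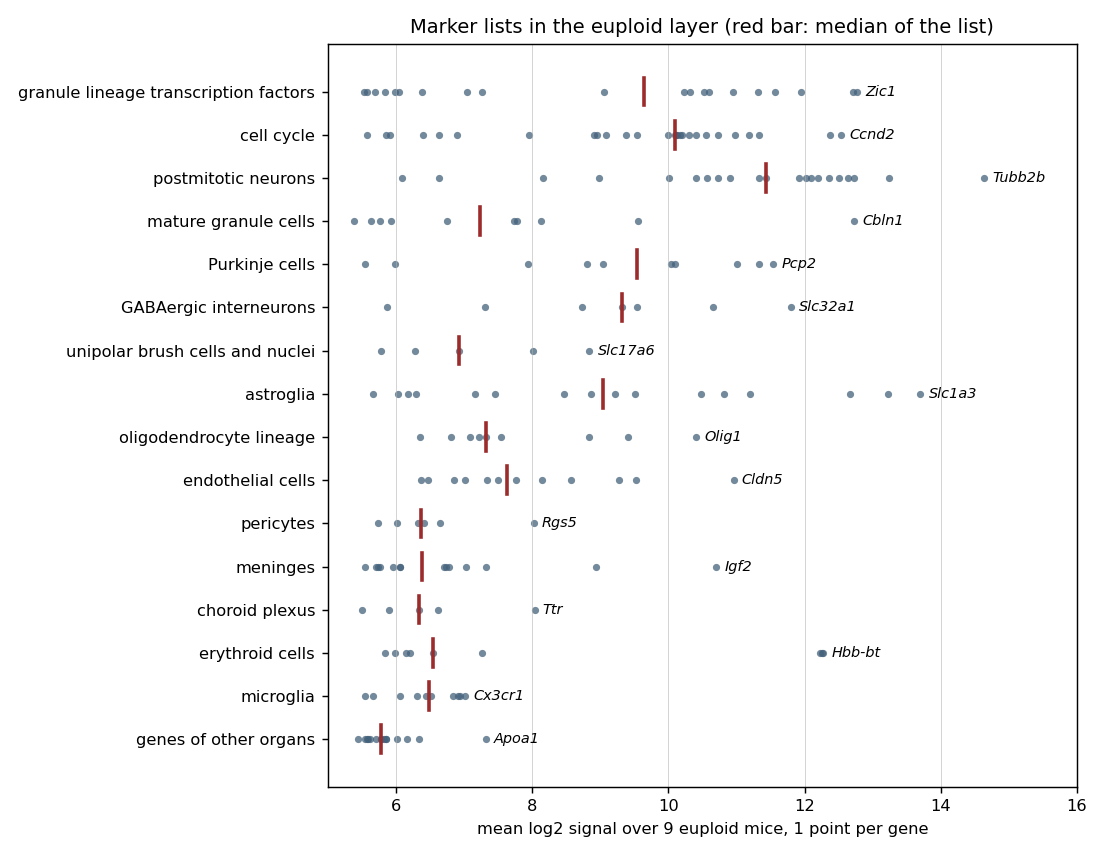
Mean log2 signal over 9 euploid mice (x axis) of each gene of 16 marker lists (rows, 1 point per gene), with the median of a list as a red bar and its brightest gene named. Postmitotic neurons have the highest median (11.43), and genes of other organs the lowest (5.79).

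Genes of stress and early response were not uniformly high. Of 22 immediate early genes 6 were in the brightest 25% of probes (41.2% of all named genes were), led by Dusp1 (9.83 ± 0.26), Klf6 (9.74 ± 0.23) and Jun (9.49 ± 0.19), while Fos (6.29 ± 0.28), Arc (6.36) and Nr4a1 (5.72) were dim. Egr1 varied most of these, with its lowest, median and highest mouse at 7.06, 8.61 and 9.18. Among glycolytic genes Gapdh had 14.11 ± 0.14 (rank 27) and Pkm 12.19 ± 0.22. Of 7 heat shock genes, 3 were among the first 1000, Dnajb1 (11.20 ± 0.14), Hspd1 (11.16 ± 0.22) and Hsph1 (10.98 ± 0.15). Hspa1a, an inducible heat shock gene, had 5.94 ± 0.10.

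Differences between mice of 1 litter were small for most genes. They were measured over the brightest 25% of probes (11658 probes, with means of at least 7.05, representing 7304 named genes), as the SD after removing the litter means (6 degrees of freedom). The median SD was 0.15 log2 over the 7304 genes, and 95% of genes had an SD under 0.33, while 108 exceeded 0.5 and 19 exceeded 1. The 20 genes with the largest SD were Xist (2.57), Abhd16a (2.04), Ttr (1.92), Pdrg1 (1.78), Dcn (1.64), Ndufb10 (1.63), Erdr1 (1.52), Enpp5 (1.5), Tomm22 (1.5), Csrp1 (1.45), Zfp472 (1.43), Pisd-ps3 (1.36), Zfp871 (1.30), Pdxdc1 (1.27), Otx2 (1.23), Clasrp (1.08), Slc17a6 (1.07), Wdr46 (1.05), Casp9 (1.04) and Tlx3 (0.99). These values chose the genes and are given as a description. Many of them fell into a high and a low set of mice with nothing between. In all, 84 of the 11658 probes (0.721%) had a gap of over 1 log2 between neighbouring mice, and in 53 of them at least 2 mice lay on each side.

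Xist, the RNA of the inactive X chromosome, was bright in 4 mice (10.96 and 11.24 in litter 1 mice 1 and 3, 10.77 in litter 2 mouse 3, and 10.62 in litter 3 mouse 3) and between 6.16 and 6.56 in the other 5. The Y-linked Eif2s3y, a translation initiation factor, was between 7.26 and 7.72 in litter 2 mice 1 and 2 and litter 3 mice 1 and 2, and between 5.49 and 5.72 in the other 5. Kdm5d, a Y-linked histone demethylase, was likewise higher in those 4 mice (6.48 to 6.92) than in the others (5.43 to 5.62). The brightest probe of Uty, another Y-linked gene, did not divide the mice, and its values in the 2 sets overlapped. Litter 1 mouse 2 was low for Xist, Eif2s3y and Kdm5d. The same mouse had the lowest Erdr1, a gene of the region shared by X and Y, at 6.33, where the other 8 mice were between 9.04 and 11.39. A second probe of Erdr1 read 5.67 in that mouse and 6.72 to 10.003 in the others.

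On chromosome 17, Ndufb10 (a subunit of respiratory complex I), Zfp871, Wdr46, Abhd16a (a phospholipid hydrolase) and Enpp5 were each low in litter 1 mouse 3, litter 2 mouse 1 and litter 3 mouse 3, and high in the other 6. Abhd16a was at 6.18, 6.10 and 6.05 in those 3 mice and between 9.29 and 10.35 in the others, and Ndufb10 at 6.54, 6.56 and 6.51 against 9.02 to 9.62. The low values were within the range of the genes of other organs. In the order of the GRCm38 annotation these 5 genes lie along a stretch with 155 tested genes, and no named gene on another chromosome had a gap of over 1 log2 with this division of the mice. Pdrg1, on chromosome 2, was low in litter 2 mouse 1, litter 3 mouse 1 and litter 3 mouse 3 (5.70 to 5.82, against 9.40 to 10.35 in the other 6). A probe of Prdx2, a peroxiredoxin on chromosome 8, divided the mice in the same way (5.83 to 5.93 against 9.84 to 11.04), and the other probe was at 7.74 to 7.99 in the same 3 mice and 8.95 to 9.90 in the others. Casp9, an initiator caspase, and Mul1, a mitochondrial ubiquitin ligase, both on chromosome 4, were low in litter 2 mice 1 and 2 and in all of litter 3, with Casp9 at 5.63 to 5.90 in those 5 mice and 8.87 to 9.72 in the other 4. Zfp472 had 1 value of 3.10, in litter 3 mouse 1, while the other 8 mice were between 7.12 and 8.03. That value was the lowest of any probe on the 9 arrays, far under the median of 5.79 of the genes of other organs. It is not read as a level of expression, and its cause was not tested.

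**Figure D3:**
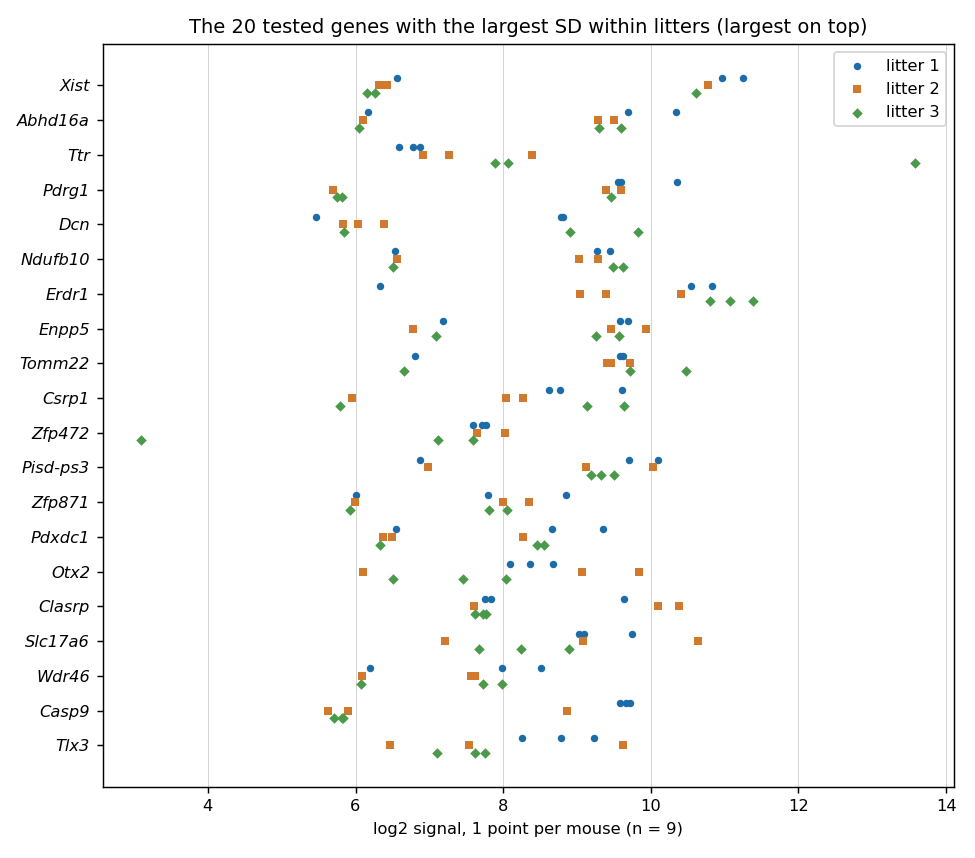
Log2 signal (x axis) in each of 9 euploid mice, coloured by litter, of the 20 tested genes with the largest SD within litters (rows). Xist, Abhd16a, Pdrg1, Ndufb10, Enpp5, Zfp871 and Wdr46 fall into 2 separate sets of mice, and Ttr is high in 1 mouse (13.58).

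Several of the variable genes mark neighbouring tissues. Ttr, the transthyretin of choroid plexus, was at 13.58 in litter 3 mouse 2 and between 6.58 and 8.38 in the other 8. Clic6, Aqp1 and Folr1, also of the choroid plexus list, were highest in the same mouse (7.99, 7.39 and 6.51), whereas Kl stayed between 5.20 and 5.71 in all mice. Dcn, the decorin of meninges, was between 8.79 and 9.82 in litter 1 mice 1 and 2 and litter 3 mice 1 and 2, and between 5.46 and 6.38 in the other 5. Over the 3 tested genes of the meninges list (Dcn, Igf2 and Cxcl12), the summed linear signal was between 1349 (litter 2 mouse 1) and 5457 (litter 3 mouse 1). The other 11 of the 14 genes of the list were under the brightest 25% of probes, which held 41.2% of all named genes. The collagen genes Col1a2 and Col3a1 and the factor Foxc1, other meningeal markers, had means of 5.71, 5.77 and 5.55. Without the 2 arrays labelled cerebellum, 14 of the 20 genes remained among the 20 most variable.

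Litter 2 mouse 2, one of the arrays labelled cerebellum, was highest for 6 of the 20 variable genes, and 122 tested genes differed by over 1 log2 between it and the mean of its 2 litter mates, against 20 to 65 genes for the other 8 mice. Slc17a6, the vesicular glutamate transporter of young and nuclear neurons, was at 10.63 in this mouse, 9.07 in litter 2 mouse 3 and 7.22 in litter 2 mouse 1. Otx2, a homeobox factor of granule cell precursors in the posterior lobes, was at 9.84, 9.07 and 6.11 in the same order, and Tlx3, a homeobox factor of glutamatergic neurons, at 9.62, 7.53 and 6.47. Litter 2 mouse 2 was highest of all 9 for these 3 genes and litter 2 mouse 1 lowest. Of the 8 tested genes of the Purkinje cell list, Calb1 (9.03), Pcp2 (10.60) and Ebf2 (8.98) were lowest of all 9 in litter 2 mouse 2. The other 5 were not: Lhx5 was highest there (9.22), and Foxp2 (9.25), Lhx1 (11.40), Rora (10.83) and Shh (7.81) lay between the lowest and the highest mouse. How much of the cerebellum each dissection held was not tested.

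Differences between the 3 litters were tested with limma (moderated F test over the 9 mice, adjusted over 11658 probes). At an adjusted p under 0.05, 422 probes (3.62%) and 187 of the 7304 named genes (2.56%) were called, of which 65 (0.89% of the 7304) were highest in litter 1, 10 (0.137%) in litter 2 and 112 (1.53%) in litter 3. An unadjusted p under 0.05 was reached by 25.7% of probes. The median range between the 3 litter means was 0.25 log2 over the 7304 genes. The count rested on single mice: it was 77 without litter 3 mouse 1, 115 without litter 1 mouse 2, 126 without litter 1 mouse 3, 156 without litter 1 mouse 1, 197 without litter 3 mouse 3 and 215 without litter 3 mouse 2, and 2301 without litter 2 mouse 2. It was 1275 without both arrays labelled cerebellum. Separate animals were compared, but each litter was 1 slide.

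Litter 3 was highest for genes of the cell cycle. All 21 tested genes of the list had their highest litter mean in litter 3, also under quantile normalization, median scaling and background subtraction. Over all 7304 named genes tested the share highest in litter 3, called or not, was 48.2%, and 41.1%, 49.9% and 48.3% under these alternatives. Of the 21, 5 passed the test (23.8% of the list, against 1.53% of all tested genes called and highest in litter 3). Plk1, a mitotic kinase, averaged 9.91, 9.84 and 10.56 in litters 1, 2 and 3 (adjusted p = 0.0167, limma), Aurkb 8.82, 8.60 and 9.31 (adjusted p = 0.0243), Aurka 8.66, 8.84 and 9.34 (adjusted p = 0.0337), Mcm2 9.92, 9.74 and 10.31 (adjusted p = 0.0472) and Birc5 10.29, 10.01 and 10.60 (adjusted p = 0.0492). For Plk1 the 3 mice of litter 3 were at 10.44 to 10.69 and the other 6 at 9.71 to 10.08. The median range of litter means over the 21 genes was 0.56 log2. Relative to each gene's mean over the 9 mice, the 21 genes averaged 0.30 log2 higher in litter 3. Other lists also averaged higher there: the 3 tested meningeal genes by 0.50, 8 endothelial genes by 0.28, 12 astroglial genes by 0.26, 4 heat shock genes by 0.21, 7 genes of the Sonic hedgehog pathway by 0.19 and 6 GABAergic genes by 0.18, and Ttr, the 1 tested choroid plexus gene, by 1.81. The meningeal genes were high in litter 3 mice 1 and 2 (1.48 and 0.86) but low in mouse 3 (-0.86). The value of Ttr came from litter 3 mouse 2 (5.55, against -0.14 and 0.03 in mice 1 and 3). The part of these lists in the cell cycle values was not tested. The calls rested on few mice, since no gene of the list passed without litter 3 mouse 1 or mouse 3, 1 without litter 1 mouse 2 or mouse 3, 2 without litter 2 mouse 3, 3 without litter 1 mouse 1, 8 without litter 2 mouse 1 or litter 3 mouse 2, and 15 without litter 2 mouse 2. Of the 30 tested H2A, H2B, H3 and H4 genes, 29 were highest in litter 3, against 48.2% of all named genes tested, and 6 were called, against 2.56% of all named genes tested (H2ac15, H2ac12, H2bc15, H2bc9, H3c4 and H4c18). H2bc15 averaged 8.26, 8.16 and 8.86 in litters 1, 2 and 3 (adjusted p = 0.0237, limma). None of the 30 was called without any 1 mouse of litter 1, without litter 3 mouse 1 or without litter 3 mouse 3, and 18 were called without litter 2 mouse 2. In that last setting 2301 of all 11658 probes were called.

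**Figure D4:**
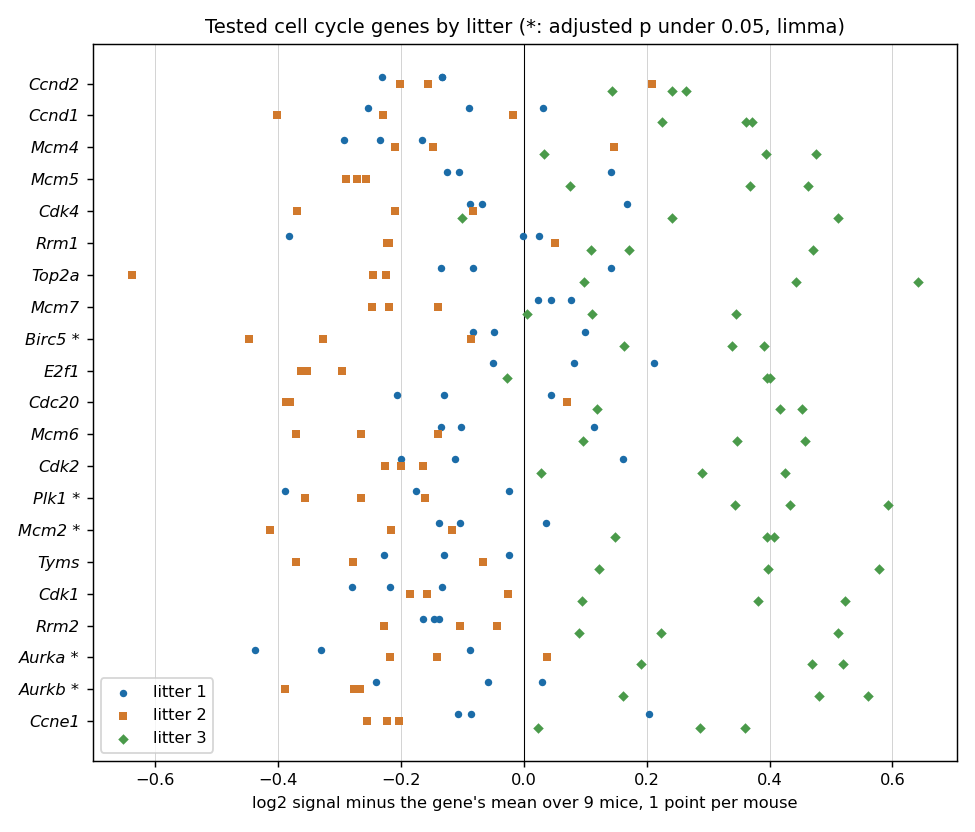
Log2 signal minus the mean of the gene (x axis) in each of 9 euploid mice, coloured by litter, for the 21 tested cell cycle genes (rows, brightest on top); asterisks mark adjusted p under 0.05 (limma). The points of litter 3 lie furthest to the right on average in every row, and 5 genes carry an asterisk.

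In other lists 1 to 3 genes each were called between litters, against 2.56% of all named genes tested. The share called was 25% of 4 CDK inhibitors, 21.4% of 14 Sox, Id and bHLH partners, 20% of 5 regional patterning genes, 16.7% of 12 astroglial and of 6 GABAergic genes, 14.3% of 14 guidance and of 7 Sonic hedgehog pathway genes, 12.5% of 8 Purkinje cell and of 8 endothelial genes, 8.33% of 12 granule lineage factors and 5.26% of 19 postmitotic neuron genes. Insm1 averaged 11.06, 11.07 and 11.80 in litters 1, 2 and 3 (adjusted p = 0.0236, limma) and was the 1 called among 12 tested granule lineage factors. Of 12 tested astroglial genes 2 were called, Aqp4, the water channel of astrocytes (8.41, 8.63 and 9.57, adjusted p = 0.00385), and Sox9 (10.98, 10.98 and 11.65, adjusted p = 0.0377). In the list of Sox, Id and bHLH partners Id3 and Id4 were called besides Sox9, all highest in litter 3. Of 14 tested guidance genes 2 were called, Sema6a, a semaphorin of migrating granule cells (10.64, 10.01 and 9.52, adjusted p = 0.00312), highest in litter 1, and Itgb1 (10.86, 10.40 and 10.89, adjusted p = 0.0324). The others were Cdkn2c, Sfrp1, Ptf1a, Vwf and Otx1, highest in litter 3, Lhx1, highest in litter 2, and Map2, highest in litter 1, each the only one called of its list. The call of Map2 was of the brightest of its 10 probes. The second-brightest was at 8.90 to 9.27, 8.59 to 9.59 and 8.48 to 8.79 in litters 1, 2 and 3. Some dimmer probes went the other way. One was at 6.56 to 6.82 in litter 1 and 6.83 to 7.39 in litters 2 and 3. Another was at 5.77 and 5.75 in litter 1 mice 1 and 3 and 7.45 to 9.03 in the other mice. Otx1 averaged 6.84, 7.05 and 8.90 (adjusted p = 0.0219, limma). Its means in litters 1 and 2 were within the range of the genes of other organs. It passed the brightness filter through its values in litter 3, where it was called highest. Of the 18 regional patterning genes on the array only 5 passed that filter. The call of Otx1 and the 20% of its list are therefore given as a description. Of the 35 genes named here that were called between litters, 34 were tested without each of the 9 mice in turn, and 10 of these kept their call in every case, among them Aqp4, Sema6a and Draxin. The number kept of the 34 was 10 without litter 3 mouse 1, 11 without litter 1 mouse 3, 12 without litter 1 mouse 2 or litter 3 mouse 3, 15 without litter 1 mouse 1, 19 without litter 3 mouse 2 and 23 without litter 2 mouse 3. Cptp fell under the brightness filter in 6 of the 9 cases and kept its call in the other 3. None of the 10 Notch, 5 mature granule cell, 3 meningeal, 4 erythroid, 7 oligodendrocyte, 13 hypoxia, 4 heat shock or 6 immediate early genes tested was called by limma. In that order, 2, 3, 1, 0, 2, 5, 0 and 2 of them had an unadjusted p under 0.05, a level that 24.5% of all tested genes reached. Without litter 2 mouse 2, 2 Notch, 4 mature granule cell, 4 oligodendrocyte, 4 hypoxia and 2 immediate early genes were called. In that setting 2301 of all 11658 probes were called. Without litter 2 mouse 1, 2 Notch, 1 mature granule cell and 1 immediate early gene were called, with 599 of 11658 probes called in all. Without litter 2 mouse 3, 1 Notch and 1 immediate early gene were called, with 319 of 11658 probes called in all.

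The 10 genes with the smallest p between litters were Ccng2, Fgfr1op2, Tmem106b, Cptp, Slc25a18, Draxin, Ptcd3, Sema6a, Aqp4 and Fbxo30. Ccng2, a cyclin G, averaged 6.11, 8.04 and 8.45 in litters 1, 2 and 3 (adjusted p = 4.3e-05, limma) and Fgfr1op2 6.17, 8.92 and 8.80 (adjusted p = 6.5e-05). Draxin, an axon guidance protein, was highest in litter 1, at 10.16 against 9.10 and 9.18. For Ccng2, Fgfr1op2, Tmem106b, Cptp, Slc25a18 and Ptcd3 all 3 mice of litter 1 were low and separated by over 1 log2 from the other 6. Of these, Fgfr1op2, Tmem106b, Slc25a18 and Ptcd3 are on chromosome 6, where 1 probe each of Strip2 and Dusp16 showed the same division and a brighter probe of each did not, while Ccng2 is on chromosome 5 with Cdkl2, and Cptp is on chromosome 4. One probe of Cdkl2 was at 5.76 to 6.00 in litter 1 and 8.16 to 8.80 in the other litters, and a brighter probe of the same gene was at 7.59 to 7.85 in all 9 mice. Strip2, Dusp16, Cdkl2, Prdx2 and Mul1 lie outside the naming rule and were picked with their values in view.

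The 2 arrays labelled cerebellum were compared with the 7 labelled EGL, with litter as a term, which sets litter 2 mice 2 and 3 against litter 2 mouse 1. No probe of 11658 was called by limma (0%), and 1127 (9.67%) had an unadjusted p under 0.05. Otx2 had one of the smallest p-values, with a difference of 3.35 ± 0.50 (SE; adjusted p = 0.143). The difference rested on litter 2 mouse 1, the lowest of all 9 mice for Otx2, and without litter as a term it was 1.85 (adjusted p = 0.502). Under median scaling it was 3.40 and passed (adjusted p = 0.0407, limma), with 3 probes called in all. Zic1 and Dcx each differed by 0.37, with adjusted p of 0.556 and 0.517. With 1 array of that litter on one side of the contrast, a difference of this label could be seen only when large.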

How the data were processed

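RNA of the dissected external granule cell layer was amplified and hybridized to Illumina Mouse-6 v1.1 beadchips, 6 arrays to a slide. The signal of a probe was the mean of its beads; the authors scaled the arrays to a common mean and deposited log2 signals; the treatment of background is not given in the sources used here. All 18 arrays were mapped to their labels, and the 9 euploid arrays were used. The values were used as deposited, with no further scaling. Of 46632 probes, 29976 had a single symbol in the platform's annotation, 10 had several and 16646 were unnamed here; 29921 symbols were brought up to date through Entrez identifiers. A gene was read from its probe of highest mean.

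Litters were compared with limma 3.58.1 (R 4.3.3; lmFit, eBayes, moderated F test) on the 11658 probes of the brightest 25% by mean, of which 2318 were unnamed, with Benjamini-Hochberg adjustment over all of them and a threshold of 0.05. The source label was tested in the same way with litter as a term. Spread, ranks and figures were computed in Python 3.11.15 (numpy 2.4.6, pandas 2.3.3, matplotlib 3.10.9). On simulated data for the comparison of litters (11658 probes, 67 changed probes at each size), 0% of changes of 1.2-fold, 40.3% of 1.5-fold and 82.1% of 2-fold were recovered, with 3 false calls among 85.

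The genes, the 27 lists (383 genes, 344 on the array) and the tests were chosen with earlier results of these data known. The genes named are the 5 markers, the 20 brightest, the 20 most variable within litters, the 10 with the smallest p between litters and members of the lists; others are said in the text to have been chosen after their values were seen. Other normalizations, background subtraction, filters, and leaving out mice, litters or the 2 arrays labelled cerebellum were tried. Promoter sequences are from RefSeq (GRCm38.p6). Ts1Cje arrays were not used here.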

Additional observations from a re-analysis of the deposited data

Results flagged for a closer look

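Each of the 213 genes with values in the text was checked for 1 mouse far from the other 8, by the gap to the next mouse divided by the whole range (Dixon's test at the 95% level). Chance flags about 1 gene in 20, and 10 were flagged, about the number that this rate gives. The genes checked include the 20 chosen for their large SD between these same mice, among them Ttr, Zfp472 and Erdr1. For those the rate does not apply, and their flags are a description. Ttr was at 13.58 in litter 3 mouse 2, where the next mouse was at 8.38, and in the same mouse the choroid plexus genes Clic6, at 7.99 (next 6.70), and Aqp1, at 7.39 (next 6.28), were highest. Zfp472 was lowest in litter 3 mouse 1, at 3.10 (next 7.12), and Erdr1 in litter 1 mouse 2, at 6.33 (next 9.04). The other 5 stood apart by far less. Actb was lowest in litter 2 mouse 3, at 14.37 (next 14.63), and Rps29 was highest in litter 3 mouse 1, at 14.97 (next 14.72). Pcp4 was lowest in litter 3 mouse 3, at 5.69 (next 5.90), and Pax2 and S100b in litter 1 mouse 1, at 5.72 (next 5.85) and 5.44 (next 5.60).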

How the results depend on the processing

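The 20 brightest genes kept 19 or 20 members under other normalizations, background subtraction and without single mice, and 10 when all probes of a gene were averaged. The 20 most variable genes kept 14 without the 2 arrays labelled cerebellum or with litter means kept, and 16 to 19 without single mice. The 422 probes called between litters became 642 under quantile normalization, 350 under median scaling, 353 after background subtraction, 996 with no filter, 160 in the brightest 15% and 693 in the brightest 40% of probes, where different numbers of probes were tested. The count was 1275 without the 2 arrays labelled cerebellum, 77 to 2301 without single mice, and 16, 1337 and 50 without litters 1, 2 and 3; the cause was not tested. For the source label, limma called 0 probes as deposited, with no filter, with the brightest 40% of probes and with no litter term, 1 under quantile normalization, 2 in the brightest 15% and 3 under median scaling. The litter with the highest mean changed between litters 2 and 3, while litter 1 stayed lowest and the call stayed, for Cptp (adjusted p = 0.00122) and Tmem106b (0.00106) under quantile normalization, for Fgfr1op2 (4.59e-07) and Ptcd3 (1.47e-05) without the 2 arrays labelled cerebellum, for Fgfr1op2 and Ptcd3 without litter 2 mouse 3, and for Tmem106b without litter 2 mouse 1 or litter 3 mouse 1. Without single mice the adjusted p was 6.73e-06 to 0.00126 for Fgfr1op2, 0.000165 to 0.0163 for Ptcd3, and 0.000131 to 0.00685 for Tmem106b. No paired analysis was possible because the labels give the mice of different litters no number in common. Genes whose signals lie within the range of genes of other organs may hold differences that these probes did not read.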
